A study of Canis lupus familiaris with 5 samples.

Results

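Glucose uptake, glycolysis, glycogen, pyruvate dehydrogenase, creatine kinase and adenine nucleotide genes were examined in canine heart muscle. The members were 44 listed gene symbols, and a probe set counted as a member when the platform annotation gave it exactly 1 of these symbols. Of the 44 symbols, 33 had a probe set on the array, with 54 probe sets in all, out of 2416 genes and 4601 probe sets that are not array controls. The other 11, among them HK1, PFKM, PGAM1 and PYGM, had no probe set under that symbol and were not analysed here.

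RNA came from canine myocardium, 2 control arrays (control 1a and 2a) and 3 arrays from failing hearts (failing 1a, 1b and 2a), in a series on congestive heart failure. On 4 of the arrays the RNA was a pool from 3 dogs, and the labels say nothing of a pool for control 1a. The labels do not give breed, age, chamber or the way failure arose, so a difference between the groups may include any of these. They also leave unsaid whether failing 1a and 1b came from the same pool, so the p-values cover only variation among these arrays, part of which may be technical.

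Glucose enters a heart muscle cell through glucose transporters, is phosphorylated by hexokinase and is split to pyruvate by the enzymes of glycolysis. Pyruvate is either reduced to lactate or passed to the pyruvate dehydrogenase complex, which pyruvate dehydrogenase kinases switch off, while glycogen is the stored form of glucose. The adult heart draws most of its energy from fatty acids, and a shift towards glucose is a well-known theme in heart failure research. Creatine kinase carries high-energy phosphate from mitochondria to the contractile proteins, the ADP/ATP carriers exchange nucleotides across the inner mitochondrial membrane, and AMP deaminase removes AMP.

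Values are linear intensities on a scale where the trimmed mean of every array is 800, and they can be negative. Values under a floor of 20 were set to it before log2 was taken, and the 2301 probe sets with a mean log2 intensity at or above 7.13 (an intensity of 140.1) were tested. Failing 2a stood apart, with r from 0.511 to 0.533 against the other arrays across these probe sets, where failing 1a and 1b had r = 0.798 and the control arrays r = 0.777. It was the highest or lowest of the 5 arrays for 25 of the 34 tested member probe sets (73.5%) and for 67.4% of all tested probe sets. The 5 cardiomyocyte markers on the array (ACTN2, MYH6, MB, MYL2 and RYR2) were all bright enough to be tested. Their summed intensity was 81738 to 85520 on the control and 60643 to 74575 on the failing arrays. MYH6, at 49704 and 50189 on control 1a and 2a, was the largest part of this sum, followed by MB. The markers went different ways, with ACTN2 and RYR2 higher and MYH6 and MB lower on every failing array, and MYL2 overlapping. Of all tested probe sets, 18.2% were higher and 11.5% lower on every failing array. In bulk tissue, fewer cells of a type and less RNA per cell cannot be told apart, and the part of the cell makeup in the results was not tested.

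Among these genes 2 of 3 probe sets of the brain-type creatine kinase CKB, the brightest of the AMP deaminase AMPD1, and those of the enolase ENO1 and the aldolase ALDOA lay above both control arrays on every failing array. The mitochondrial ADP/ATP carrier SLC25A4, 1 of 3 probe sets of the triosephosphate isomerase TPI1 and 1 of 2 of the muscle creatine kinase CKM lay below both. So did 1 of 3 of the glyceraldehyde-3-phosphate dehydrogenase GAPDH, the only 1 above the floor, though not under every scaling used below. None of the 34 tested member probe sets, which cover 25 genes, passed an adjusted p of 0.05 in limma. In that test 0.0869% of all tested probe sets (2 of 2301) were called higher and 0% lower, and 21 were called in either direction without failing 2a. At an unadjusted p under 0.05 in limma, 4 member probe sets were higher (11.8%, against 6.13% of all tested) and 1 was lower (2.94%, against 3.35%). Of these, AMPD1 reached the intensity filter only through its failing arrays and the 1 lower, CKM HSPD4319_r_at, only through its control arrays, so these counts are a description and support nothing about the members.

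The groups did not overlap for 14 of the 34 tested member probe sets, 10 of them higher in failing myocardium and 4 lower. That is 29.4% higher and 11.8% lower, beside 18.2% and 11.5% of all tested probe sets, so the share lower is near the background. Among the 14 are AMPD1 HSPD2194_at and CKM HSPD4319_r_at, which passed the filter through 1 group only, so these counts too are a description. Without the filter 25% of 44 member probe sets lay higher and 11.4% lower, against 13% and 10.2% of all. The median log2 fold change was 0.13 over the members and 0.11 over all tested probe sets. Both medians depended on the scaling, at −0.07 and −0.10 when arrays were divided by their 75th percentile and at 0.0033 and −0.05 after quantile normalization. The split of all probe sets at an unadjusted p under 0.05 also moved, from 64.7% higher to 44.7% with the 75th percentile. With the 75th percentile 8 member probe sets lay higher and 6 lower (23.5% and 17.6%), beside 12.1% and 16.9% of all tested, so that more of all probe sets lay lower than higher. After quantile normalization the members had 24.2% and 12.1% and all tested 13.5% and 14.9%. Under all 3 scalings 8 of the 10 higher probe sets and 3 of the 4 lower ones kept their groups apart. Those that did not were PDK4, ENO3 HSPD341_r_at and GAPDH. Without failing 2a, 12 of 32 member probe sets lay higher (37.5%, against 28.2% of all tested) and 9 lower (28.1%, against 21.0%), and that comparison rests on failing 1a and 1b. Without control 2a, 9 lay lower (26.5%, against 19.6% of all tested), and without failing 1b 7 did (20%, against 15.2%), so the background rose as well.

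**Figure D1:**
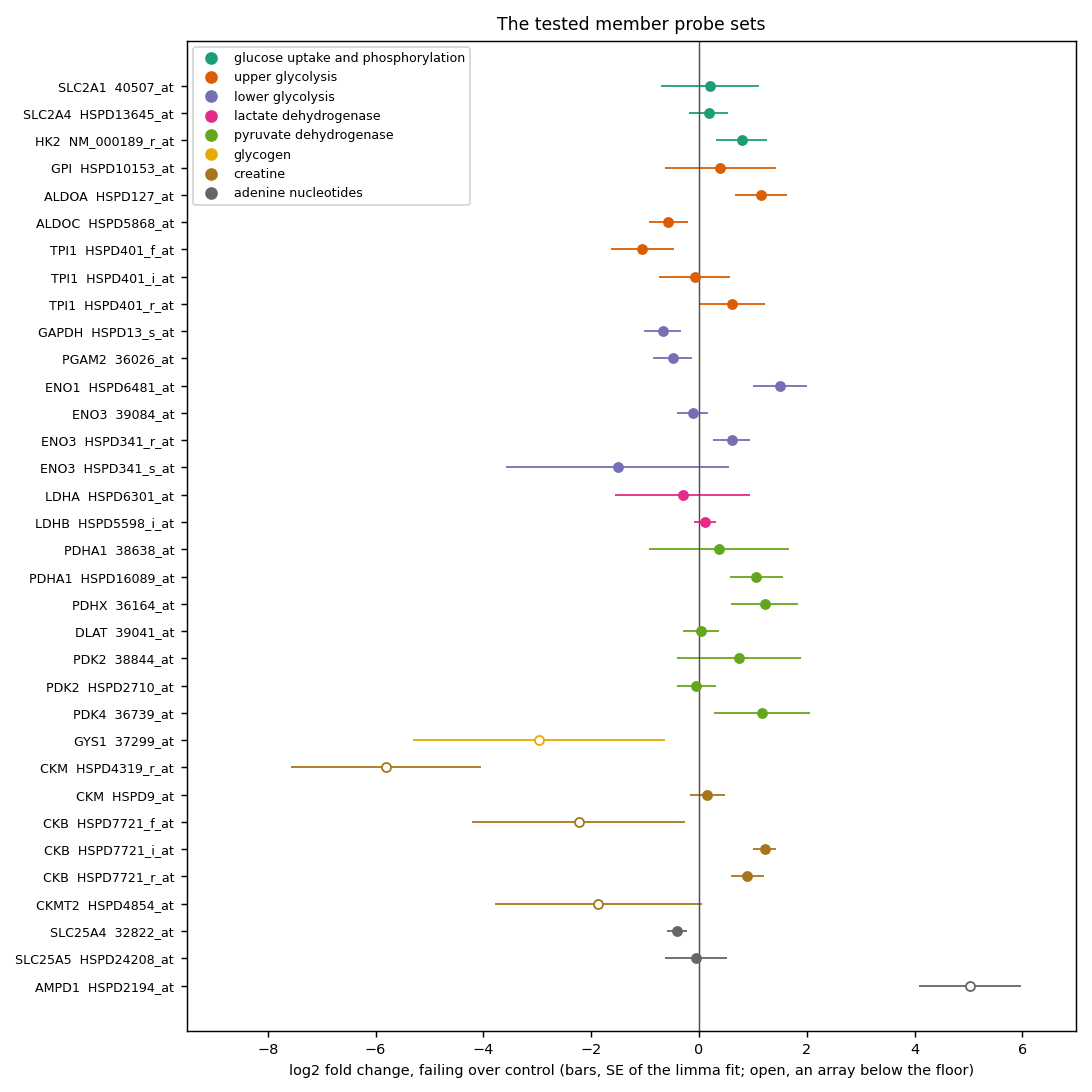
Log2 fold change of failing over control myocardium (horizontal axis) for the 34 tested member probe sets, coloured by the step they belong to, with bars of 1 SE of the limma fit. Most probe sets lie within 2 of 0, and the 5 open circles, where at least 1 array was below the floor, include the outermost points, CKM HSPD4319_r_at at −5.80 and AMPD1 HSPD2194_at at 5.03.

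Glucose uptake and phosphorylation were represented by 3 genes, all tested. SLC2A4, the insulin-responsive transporter GLUT4, had intensities of 1627 and 1706 on control 1a and 2a and of 1547, 1597 and 2740 on failing 1a, 1b and 2a. Failing 1a and 1b lay just below both control arrays and failing 2a far above, so the groups overlapped (log2 fold change 0.18 ± 0.36 SE, adjusted p = 0.896). SLC2A1, the basal transporter GLUT1, ranged from 711.2 to 3531 within the control group and from 826.4 to 3735 within the failing group, so its groups overlapped too. HK2, the insulin-regulated muscle hexokinase, read 769.6 and 756.6 on the control arrays, against 984.1, 1110 and 2099 on failing 1a, 1b and 2a. All 3 failing arrays lay above the control arrays, failing 2a by the most. The change was 1.73-fold, a log2 fold change of 0.79 ± 0.46 (adjusted p = 0.666), and 0.45 without failing 2a. A second HK2 probe set was too dim to be tested, and its groups overlapped.

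In the upper part of glycolysis 6 genes were on the array and 4 were tested. ALDOA, the muscle aldolase that splits fructose bisphosphate, read 960.6 and 1058 on the control arrays, against 1956, 1470 and 3906 on failing 1a, 1b and 2a. Every failing array was brighter than both control arrays, on average by 2.22-fold (log2 fold change 1.15 ± 0.48, adjusted p = 0.522), and by 0.75 on the log2 scale without failing 2a. ALDOC, an aldolase best known from brain, went the other way on average, from 3249 ± 703 (SD, n = 2) to 2241 ± 692 (n = 3), with overlapping groups (−0.57 ± 0.37, adjusted p = 0.687). GPI, the glucose phosphate isomerase, had 539.7 and 423.2 in control and 346.9, 304.3 and 2353 in failing myocardium. Failing 1a and 1b were below both control arrays and failing 2a was above them, by a log2 difference of 2.30.

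TPI1, which interconverts the triose phosphates, had 3 tested probe sets and they disagreed. HSPD401_f_at, whose suffix marks probes shared by a gene family, read 4566 and 5300 in control and 3102, 3983 and 1085 in failing myocardium. Its failing arrays all lay below control, at 0.483-fold (−1.05 ± 0.59, adjusted p = 0.645), and at −0.48 without failing 2a. HSPD401_i_at and HSPD401_r_at had log2 fold changes of −0.08 ± 0.65 and 0.61 ± 0.61, both with overlapping groups. On the 3 probe sets failing 2a was lower than failing 1a and 1b. PFKP, a phosphofructokinase, was below the floor on all arrays. PFKFB1, which makes the allosteric activator of phosphofructokinase, was below it on 1 control and 1 failing array, and neither was tested.

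Lower glycolysis had 6 genes on the array, of which 4 were tested. ENO1, the enolase present in most tissues, read 260.2 and 425.2 on the control arrays, against 951.5, 825.6 and 1061 for failing 1a, 1b and 2a. The lowest failing array was brighter than the highest control array, and the 3 failing arrays lay close together. Its change was 2.83-fold, a log2 fold change of 1.5 ± 0.51 (adjusted p = 0.466 in limma), between 1.15 and 1.85 over 15 alternative analyses.

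ENO3, the muscle enolase, had 3 tested probe sets with different directions. The brightest read 3602 and 3882 in control and 2882, 4638 and 3078 in failing myocardium, and the groups overlapped (−0.12 ± 0.28). HSPD341_r_at had 937.3 and 1560 in control and 1850, 1691 and 1985 in failing myocardium, above control on every failing array (0.60 ± 0.35, adjusted p = 0.658), with 0.24 without control 1a and 0.97 without control 2a. HSPD341_s_at differed by array, with 21.3 on failing 2a against 1944 and 1374 on failing 1a and 1b. PGAM2, the muscle phosphoglycerate mutase, read 7375 and 8474 in control and 6402, 7734 and 3626 in failing myocardium. Failing 1b lay inside the control range and the other failing arrays below it (−0.49 ± 0.36, adjusted p = 0.739). PGK1, phosphoglycerate kinase, was below the floor on all arrays, and the 3 probe sets of the pyruvate kinase gene PKM were too dim to be tested. These are readings of human probes on dog RNA.

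**Figure D2:**
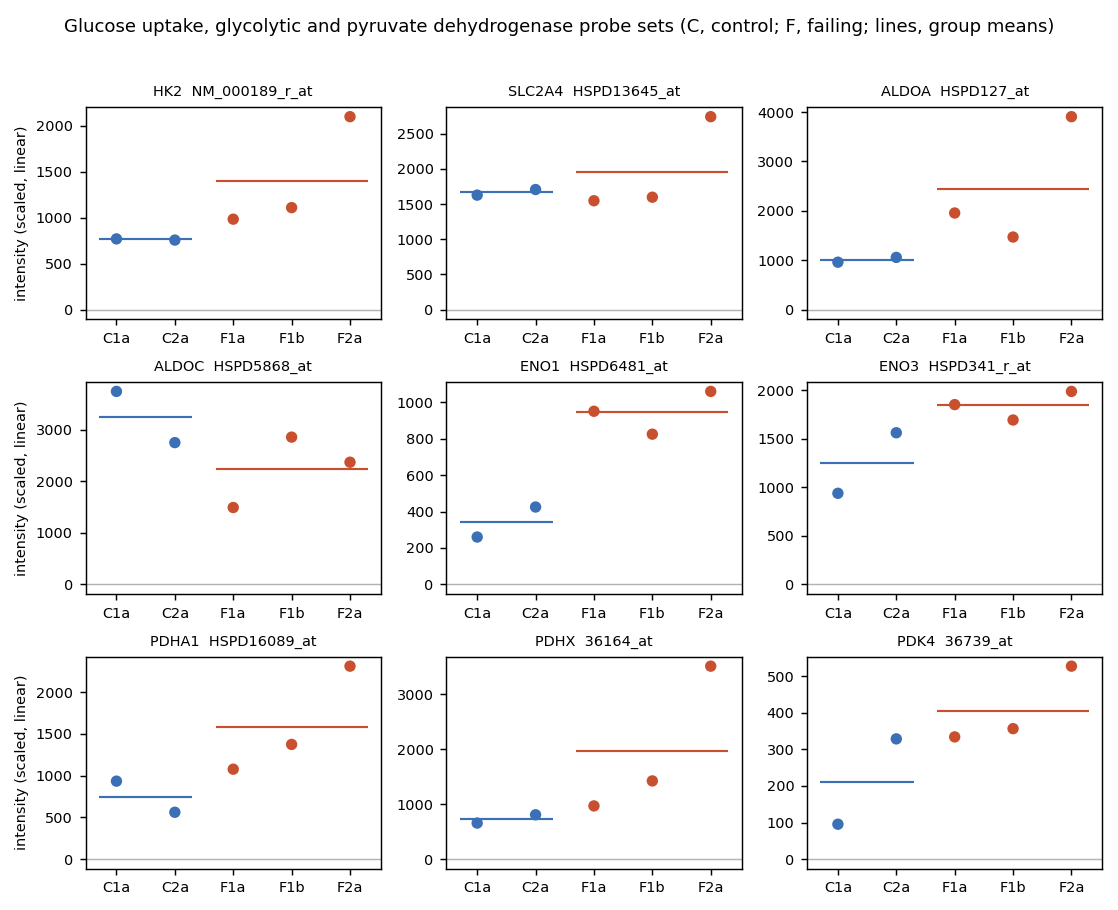
Linear intensity (vertical axis, its own range in each panel) of glucose uptake, glycolytic and pyruvate dehydrogenase probe sets on control 1a and 2a (C, blue) and failing 1a, 1b and 2a (F, red), with lines at the group means. HK2, ALDOA, ENO1, ENO3, PDHA1, PDHX and PDK4 show every failing array above both control arrays, SLC2A4 and ALDOC show overlapping groups, and failing 2a is the highest array in every panel except that of ALDOC.

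GAPDH, which oxidises glyceraldehyde-3-phosphate, read 61327 and 53893 on control 1a and 2a and 24264, 36533 and 52876 on failing 1a, 1b and 2a with HSPD13_s_at. All failing arrays were below both control arrays, failing 2a only just. The log2 fold change was −0.67 ± 0.34, 0.627-fold (adjusted p = 0.597), and −0.39 without failing 1a. The array also holds 3 control probe sets for the 5′, middle and 3′ parts of GAPDH, from the same reference sequence. The 5′ part had a mean of 34552 ± 4445 (SD, n = 2) in control and 34626 ± 8276 (n = 3) in failing myocardium, a log2 difference of −0.02. The middle part went from 60021 ± 1292 to 30504 ± 7013, a log2 difference of −1.0, and the 3′ part from 76945 ± 5586 to 47919 ± 9788, a difference of −0.70. Thus the middle and 3′ parts were dimmer on every failing array and the 5′ part was not (two-sided exact permutation p = 0.2, 0.2 and 1 for the middle, 3′ and 5′ parts, where 0.2 is the smallest that 2 against 3 arrays can give). The 3′ to 5′ ratio was 2.24 ± 0.13 in control and 1.39 ± 0.06 in failing myocardium. For actin it was 0.0992 ± 0.0131 and 0.162 ± 0.065, with overlapping groups. The part of RNA quality in the GAPDH difference, and in those of the other members, was not tested. The other 2 GAPDH probe sets were below the floor on all arrays.

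**Figure D3:**
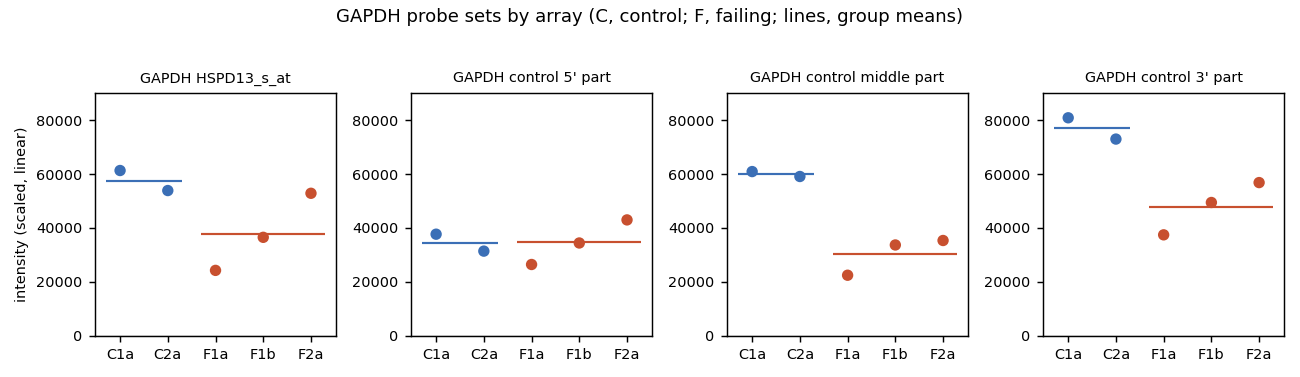
Linear intensity (vertical axis, the same range from 0 in all panels) of HSPD13_s_at and of the array control probe sets for the 5′, middle and 3′ parts of GAPDH on control 1a and 2a (C, blue) and failing 1a, 1b and 2a (F, red), with lines at the group means. The group means of the 5′ part nearly coincide at 34552 and 34626, while those of the middle part are 60021 and 30504.

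Lactate dehydrogenase joins and parts pyruvate and lactate, with the LDHB subunit typical of heart and LDHA of fast muscle. LDHB read 12461 and 9485 in control and 10654, 12262 and 12403 in failing myocardium with HSPD5598_i_at. All failing values lay inside the control range (0.11 ± 0.20, adjusted p = 0.887). A second LDHB probe set was below the floor on all arrays. LDHA had 155.5 and 456.4 in control and 644.8, 206.1 and 76.6 in failing myocardium. The failing arrays ran from below the lowest to above the highest control array, and the log2 fold change was −0.30 ± 1.25 (adjusted p = 0.955).

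The 5 pyruvate dehydrogenase genes were PDHA1, PDHX and DLAT of the complex and PDK2 and PDK4, kinases that switch it off. They had 7 probe sets, all tested, of which 6 had a log2 fold change above 0 (85.7%, against 56.1% of all tested). The median was 0.74, beside 0.11 over all tested, and was that of the dimmer PDK2 probe set (0.74 ± 1.14). In 3 of the 7 (42.9%, against 18.2% of all tested) the failing arrays all lay above control, and in none below (against 11.5%). These 3 were of PDHA1, PDHX and PDK4, so the counts mix the complex with its kinases. PDHA1, the catalytic alpha subunit, read 934.2 and 561.4 in control and 1078, 1374 and 2312 in failing myocardium with HSPD16089_at. All failing arrays exceeded both control arrays, failing 1a by little, at 2.08-fold on average (1.06 ± 0.49, adjusted p = 0.582), with 0.69 without control 2a. Its dimmer probe set had 0.37 ± 1.29 with overlapping groups. PDHX, which binds dihydrolipoamide dehydrogenase into the complex, read 656.8 and 807.6 in control and 969.3, 1425 and 3516 in failing myocardium. Failing 2a was far above failing 1a and 1b, and all were above control (1.22 ± 0.62, adjusted p = 0.598), with 0.69 without failing 2a. DLAT, the acetyltransferase core of the same complex, had 1241 ± 29.3 in control and 1290 ± 225 in failing myocardium, with overlapping groups (0.04 ± 0.33).

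The kinases that switch the complex off gave mixed readings. PDK4, the starvation-induced kinase, had 95.4 and 328.4 on control 1a and 2a and 333.9, 356.4 and 527.1 on failing 1a, 1b and 2a. Control 2a lay just under the lowest failing array, while control 1a was far lower (1.17 ± 0.90, adjusted p = 0.747). Its log2 fold change was 0.27 without control 1a and 2.06 without control 2a. PDK2, the kinase most widely present in tissues, had 2276 ± 127 in control and 2280 ± 797 in failing myocardium with HSPD2710_at (−0.05 ± 0.36). With its other probe set control 1a read 3753 and control 2a 255.6, a spread wider than that of the failing arrays (1135 to 2346).

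Glycogen was covered thinly, with 2 genes on the array and 1 tested. GYS1, the muscle glycogen synthase, had 836.7 and 692.7 in control and −255.2, −471.2 and 2286 on failing 1a, 1b and 2a. Failing 1a and 1b were thus below 0 and failing 2a above both control arrays, and the log2 fold change of −2.97 ± 2.33 on floored values (adjusted p = 0.761) has its size set by the floor. PPP1R3C, a subunit that brings protein phosphatase 1 to glycogen, was below the floor on all arrays.

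Creatine kinase gave the member with the smallest p. CKB, the brain-type isoform that is also made in the fetal heart, read 3432 and 2820 on control 1a and 2a and 7332, 8249 and 6224 on failing 1a, 1b and 2a with HSPD7721_i_at. The lowest failing array was well above the highest control array. The change was 2.32-fold, a log2 fold change of 1.21 ± 0.22 (adjusted p = 0.278 in limma), with adjusted p from 0.0716 to 0.764 over its alternative analyses. HSPD7721_r_at went the same way, with 3542 and 3809 in control and 5540, 5853 and 9787 in failing myocardium, 1.86-fold (0.89 ± 0.31, adjusted p = 0.469). Its failing arrays too lay above control, failing 2a farthest. The family probe set HSPD7721_f_at had 2448 and 418.6 in control and 1525, 330.4 and −1913 in failing myocardium, with overlapping groups. The 3 CKB probe sets carry the same reference sequence and so are not independent of each other.

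CKM, the muscle creatine kinase of the sarcomere, read 16389 and 16447 in control and 20373, 24654 and 12171 in failing myocardium with HSPD9_at. Failing 1a and 1b lay above both control arrays and failing 2a below them (0.16 ± 0.32, adjusted p = 0.896). A second CKM probe set, HSPD4319_r_at, had 3775 and 3508 in control and −893.0, 693.5 and −2314 in failing myocardium. It was below control on every failing array, with a log2 fold change of −5.80 ± 1.76 on floored values (adjusted p = 0.412), and no fold is given because 2 failing arrays were below the floor. It passed the filter through its control arrays, and its log2 fold change ran from −7.51 to −4.25 over the alternative analyses, −4.25 with a floor of 100. The probe sets of CKM thus disagreed on failing 1a and 1b. CKMT2, the mitochondrial creatine kinase of striated muscle, had 1327 and 839.2 in control and 1204, 1002 and −676.4 in failing myocardium. Failing 1a and 1b lay inside the control range, and the log2 fold change of −1.87 ± 1.92 came from failing 2a and was 0.06 without it. GAMT and GATM, the enzymes of creatine synthesis, were below the floor on all arrays.

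Markers of other cell types were measured on the same arrays, and none of their probe sets passed the adjusted threshold in limma. The summed intensity of the endothelial markers was 3936 to 4562 on the control and 4418 to 7623 on the failing arrays, and that of the smooth muscle and pericyte markers 4685 to 4871 and 4327 to 6206, both with overlap. Of 5 tested endothelial probe sets the failing arrays all exceeded control for 2 and were all under it for 1. Over all tested probe sets these shares were 18.2% and 11.5%, which also stand beside the counts of the other cell types. The 1 under control was an ENG probe set, HSPD34099_r_at, with 5158 and 8319 in control and 1598, 1488 and 522.6 in failing myocardium. The other, HSPD34099_i_at, read 3090.2 and 3200.5 in control and 2938, 2152 and 6162 on failing 1a, 1b and 2a, and overlapped. Marker sums take only the probe set of each gene with the highest mean log2 intensity over all 5 arrays. For ENG that was HSPD34099_i_at, although HSPD34099_r_at was the brighter on both control arrays. The endothelial sum, and its overlap, thus depend on a choice that used the failing arrays. For smooth muscle the corresponding counts were 1 and 1 of 2, and CNN1 was below the floor on all arrays. The fibroblast markers summed to 2323 to 3920 on the control and 4206 to 6400 on the failing arrays, and 2 of 5 tested genes (COL3A1 and COL1A2) exceeded control on all failing arrays, while COL1A1, LUM and PDGFRA overlapped. The red blood cell markers summed to 3301 to 5270 and 4424 to 5549, and the sums overlapped. Of their 3 tested probe sets, 1 of HBB exceeded control on every failing array (0.94 ± 0.37, adjusted p = 0.521 in limma). The other HBB probe set and that of HBA1 overlapped. Of 1 adipocyte gene tested, PLIN1 was lower on every failing array, and no leukocyte marker was bright enough to be tested. The leukocyte sum was 1930 on failing 2a and 12.9 to 172.8 on the other arrays. The only neural marker on the array, MBP, read 135.1 and 549.1 in control and 522.2, 659.9 and 1522 in failing myocardium, with overlap (1.57 ± 0.88, adjusted p = 0.645). The part of these cells in the CKB and ENO1 differences was not tested.

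The ADP/ATP carrier of heart and skeletal muscle, SLC25A4, read 9539 and 9577 on the control arrays, against 7803, 7610 and 6327 on failing 1a, 1b and 2a. The control arrays were nearly equal and every failing array lay below them. The change was 0.755-fold, a log2 fold change of −0.41 ± 0.18 (adjusted p = 0.567), between −0.61 and −0.31 over 15 alternative analyses. Its other probe set was too dim to be tested and read 244.9 and 254.4 in control and −154.0, −261.9 and −1137 in failing myocardium, the same order of groups. SLC25A5, the carrier isoform of proliferating cells, had 804.5 ± 204 in control and 830.7 ± 439 in failing myocardium, with overlapping groups (−0.06 ± 0.58).

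AMPD1, the AMP deaminase of skeletal muscle, read 133.6 and −111.6 on control 1a and 2a and 1830, 1679 and 1552 on failing 1a, 1b and 2a with HSPD2194_at. The failing arrays lay close together and far above the control arrays. The log2 fold change was 5.03 ± 0.95 on floored values (adjusted p = 0.278 in limma), and adjusted p ran from 0.0755 to 0.670 over 15 alternative analyses. No fold is given because control 2a was below the floor, and the probe set passed the filter through its failing arrays. The size is set in part by the floor and by the control arrays, at 3.86 with a floor of 100, 3.66 without control 2a and 6.40 without control 1a. A second probe set, from another reference sequence, was too dim to be tested. It read −123.3 and −190.8 in control and 131.3, 143.0 and 358.6 in failing myocardium, also above control on every failing array. The third, HSPD2194_g_at, was below 0 on all arrays. Skeletal muscle markers were measured beside it, and their summed intensity was 3885 to 4010 on the control and 5575 to 10861 on the failing arrays. Of 4 tested probe sets 2 (TNNC2 and MYH2) exceeded control on all failing arrays, where 18.2% of all tested probe sets did. TNNT3 (0.42 ± 0.81) and ACTN3 (−1.03 ± 2.51) overlapped, and ACTN3 read 6971 on failing 1b and −1325 on failing 2a. No marker was below the floor throughout. Their part in the AMPD1 difference was not tested. AK1, the adenylate kinase of muscle cytosol, had 3 probe sets, none bright enough to be tested.

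**Figure D4:**
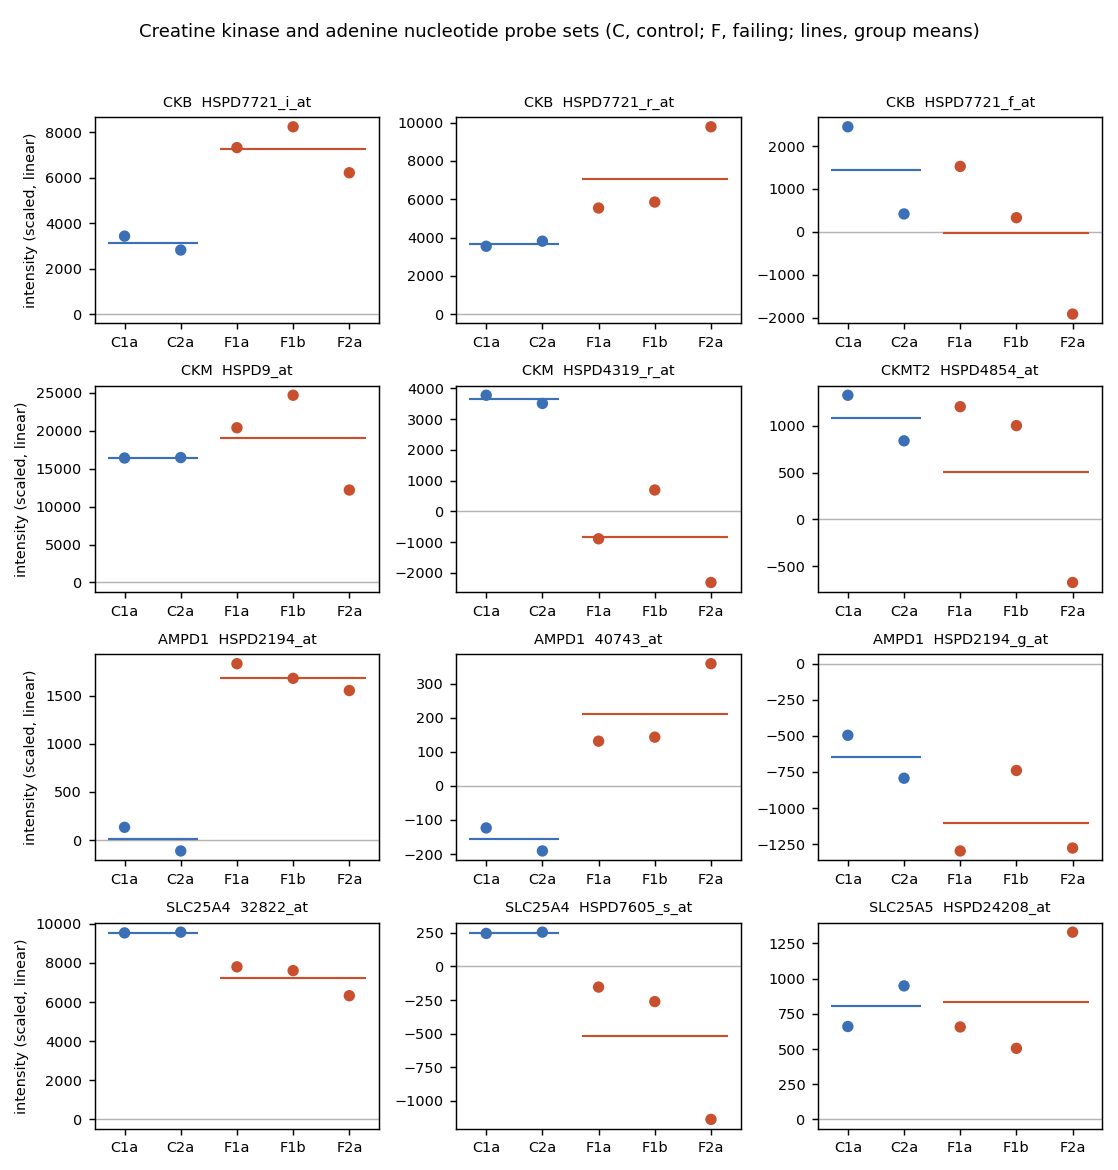
Linear intensity (vertical axis, its own range in each panel, with a grey line at 0) of creatine kinase and adenine nucleotide probe sets on control 1a and 2a (C, blue) and failing 1a, 1b and 2a (F, red), with lines at the group means. Pairs of CKB and AMPD1 probe sets and both SLC25A4 probe sets separate the groups, whereas the brighter CKM probe set reads 20373 and 24654 on failing 1a and 1b and 12171 on failing 2a.

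Related genes were then compared within each array, where a single scaling factor per array cancels. Quantile normalization does not cancel, and the pairs were not compared after it. Of 14 pairs considered, 6 had both brightest probe sets at or above the floor on all arrays. Relative to the control mean, the log2 difference of ALDOC over ALDOA was −2.06, −0.71 and −2.39 on failing 1a, 1b and 2a, with control arrays at 0.29 and −0.29. For ENO3 over ENO1 it was −1.89, −1.0 and −1.95, with control arrays at 0.30 and −0.30. In both pairs every failing array was thus below the control arrays. CKB over CKM was 0.28, 0.09 and 1.85, above control values of −0.05 and 0.05, though by little on failing 1b. PDK4 over PDK2 was 1.43, 1.13 and 1.10, above control values of −0.95 and 0.95. This pair used PDK2 HSPD2710_at. The other PDK2 probe set, with 3753 and 255.6 on control 1a and 2a, was not compared within arrays, nor were other dimmer probe sets of the paired genes. LDHB over LDHA and SLC25A5 over SLC25A4 overlapped. The 4 pairs that did not overlap had a two-sided exact permutation p of 0.2, the smallest possible here, and an adjusted p of 0.3 over the 6 pairs.

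**Figure D5:**
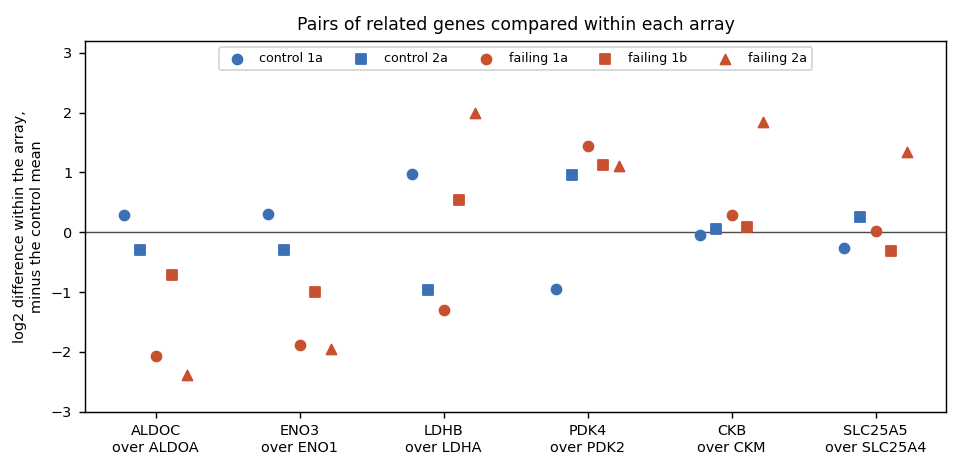
Log2 difference between the brightest probe sets of 2 related genes within each array, minus the mean of the control arrays (vertical axis), for 6 pairs, with control arrays in blue and failing arrays in red. ALDOC over ALDOA and ENO3 over ENO1 lie below the control arrays on all failing arrays, by a mean of −1.72 and −1.62, and the control arrays of PDK4 over PDK2 lie 0.95 to either side of their mean.

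Other genes of these pathways, from a list of 90 symbols, had 32 genes on the array, and 13 genes with 19 probe sets were tested. None of the 19 passed the adjusted threshold in limma. At an unadjusted p under 0.05 in limma 2 were higher and 1 was lower, where 6.13% and 3.35% of all tested probe sets were. The groups did not overlap for 6 higher and 2 lower, where 18.2% and 11.5% of all tested probe sets did not. The 6 higher were of HK3, PPP1CA, AKT1 and MEF2C, the last with several probe sets, so they are not 6 separate genes. The 2 lower were of TXNIP and ADSS1. TXNIP, the thioredoxin-interacting protein that limits glucose uptake, read 14419 and 17532 on the control arrays, against 8805, 8535 and 6452 on failing 1a, 1b and 2a. Every failing array lay far below both control arrays, at 0.494-fold (log2 fold change −1.02 ± 0.22, adjusted p = 0.305 in limma). Over 15 alternative analyses its log2 fold change stayed between −1.22 and −0.87 and its adjusted p between 0.107 and 0.764. HK3, a hexokinase best known from white blood cells, read 1687 and 2568 in control and 3870, 3216 and 7536 in failing myocardium with NM_002115_s_at (1.13 ± 0.44, adjusted p = 0.520). Its other probe set had −1.18 with overlapping groups. MEF2C, a muscle transcription factor, read 1593 and 1346 in control and 2386, 2258 and 2377 in failing myocardium with HSPD16384_g_at (0.68 ± 0.26, adjusted p = 0.503). Every failing array exceeded control, as it did for HSPD16384_at and HSPD36231_r_at, whereas HSPD36231_s_at overlapped (0.25 ± 0.54). PPP1CA, a catalytic subunit of protein phosphatase 1, had 1214 and 911.4 in control and 1854, 1656 and 1899 in failing myocardium with its probe set of smallest p (0.77 ± 0.31, adjusted p = 0.522). Its failing arrays all exceeded control, but those of its other probe set overlapped, with failing 2a at 360.6 below both control arrays (480.4 and 620.6). Of the pentose phosphate and hexosamine genes, 2 were on the array and none was bright enough to be tested.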

How the data were processed

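The deposited table holds a linear intensity for each probe set on 5 arrays, grouped by sample title. How the authors scaled it is not given in the sources used here. The values have a mean of 800 per array once 2% are trimmed from either end, and 34.7% to 39.9% of values per array are below 0. The array's annotation is of human genes and the RNA is canine, which can lower a probe set's signal on all arrays.

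Intensities were floored at 20, put on the log2 scale and compared by limma 3.58.1 in R 4.3.3 (lmFit and trended eBayes, two-sided, Benjamini-Hochberg over 2301 probe sets, threshold 0.05), without the 52 array controls. The script was tested on simulated data that, unlike these, had no outlying array and no floored values. The simulated SD of each probe set was also capped at the median SD, so the noisier probe sets varied less than in these data. Errors of intensities are SDs and those of log2 fold changes SEs. The number of arrays limits the precision. Groups do not overlap when all failing values lie on the same side of both control values. Pairs and array controls were compared by exact permutation tests.

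Members and lists were chosen with earlier results of these data known. Full values are given for the 12 tested member probe sets of smallest p, for SLC2A4, HK2, PFKM, GAPDH, LDHA, LDHB, PDK4, PYGM, CKM, CKMT2 and SLC25A4 where on the array, and for the 4 other pathway genes of smallest p. The 15 alternatives changed the floor, scaling, filter, probe choice or variance model, averaged failing 1a and 1b, added a replicate block or left out an array.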

Additional observations from a re-analysis of the deposited data

How the results depend on the processing

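Member probe sets called by limma numbered 0 in the reported analysis and under all 15 alternatives. The count over all probe sets was 2, and it was 4 with a floor of 100, 6 without the intensity trend, 1 with 1 probe set per gene, 0 with failing 1a and 1b averaged and 0 with the title number as a replicate block (1 for arrays 1a and 1b, 2 for arrays 2a). With the block, 10 member probe sets lay higher without overlap, 4 lower, and the median log2 fold change was 0.10. The correlations of deviations from the group means between arrays of the same number were 0.011, 0.051 and 0.042, and the labels do not say that a number marks a shared batch. Leaving out each array gave from 0 to 21 called probe sets over all (21 without failing 2a, 3 without control 2a, 0 in the other 3 fits), 10 to 12 higher members and 5 to 9 lower members without overlap (9 without control 2a or failing 2a, 7 without failing 1b), while the share of all tested probe sets without overlap ran from 24.9% to 30.9% higher and from 15.2% to 21.0% lower. Leaving out control arrays leaves 1 control array, assumed to vary like the failing ones. Of the 23 named probe sets, 18 kept their direction and stayed on the same side of the threshold under every alternative that gave a value. The others were close to 0 or wide: with the 75th percentile SLC2A4 had −0.019, LDHB −0.091 and CKM HSPD9_at −0.047. Leaving out each array gave from −0.084 (without failing 2a) to 0.33 for SLC2A4, from −1.08 to 0.48 for LDHA (0.48 without control 2a, 0.45 without failing 2a), from −0.085 (without control 2a) to 0.31 for LDHB, from −0.060 (without failing 1b) to 0.45 for CKM HSPD9_at and from −2.90 to 0.058 (without failing 2a) for CKMT2. The cause was not tested. Probe sets below the floor on all arrays have no measured change here, and their low signal limits what can be said of PFKP, PGK1, PPP1R3C, GAMT and GATM.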
